A study of Homo sapiens with 6 samples.

Results

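Retinoid receptors and retinoic acid target genes are described here in the human breast cancer line MDA-MB-231, which lacks the hormone receptors and HER2 amplification that define other breast cancer types. The cells were compared with and without khellin, a natural furanochromone. The group was picked by gene name and holds 10 of the 27776 genes of the deposited count table: the retinoic acid receptor genes RARA, RARB and RARG, the retinoid X receptor genes RXRA and RXRB, and DHRS3, PLAAT4, CRABP2, RARRES1 and TGM2. Polyadenylated RNA of 3 control and 3 khellin libraries was sequenced, and the sample titles call the libraries of a group biological replicates without saying whether they came from separate cultures. The labels used here give neither the dose nor the time of khellin, and the series' design text mentions docetaxel resistance where the titles say control, so whether the control cells, or all cells, carried that resistance is not settled by the labels. The genes were chosen with the khellin and control values of these libraries known. Differences between the groups in the 10 genes are therefore given as a description, with fold changes and errors but without p-values.

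Retinoic acid, made from vitamin A, acts through nuclear receptors. A retinoic acid receptor pairs with a retinoid X receptor on paired copies of a short DNA motif near target genes, binds corepressors without ligand and exchanges them for coactivators with ligand. Retinoid X receptors also pair with the thyroid hormone, vitamin D, liver X and peroxisome proliferator-activated receptors. In breast cancer cells retinoic acid is known mainly for slowing growth, and loss of RARB expression is a known feature of many breast cancers.

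The retinoic acid response element of RARB is the textbook case of such a paired motif, and its letters are shown as an example. RARB has other annotated starts as well, and its counts cover the whole gene, so its level is not a reading of this element. Promoter windows of 300 bases, 250 before and 50 after each annotated start, came from RefSeq on GRCh38.p14, and 8 of the 10 genes had at least 1, with 17 windows in all. PLAAT4 and TGM2 had none. Both strands were searched for the receptor core motif, whose consensus is AGGTCA and whose further spellings taken here were AGTTCA, the spelling GGTTCA and lastly GGGTCA, and for direct repeats of any pair of these spaced by 1, 2 or 5 bases, the last of the form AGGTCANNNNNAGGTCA. The first sequence below is the 250 bases before the RARB start at 25428263 (chr3:25428013-25428262, plus strand). The second, for contrast, is the 250 bases before the first listed DHRS3 start at 12618210 (chr1:12618211-12618460, minus strand), from the gene with the largest fold change of the group. Both are written on the strand of the gene, and capitals mark core motifs.
RARB: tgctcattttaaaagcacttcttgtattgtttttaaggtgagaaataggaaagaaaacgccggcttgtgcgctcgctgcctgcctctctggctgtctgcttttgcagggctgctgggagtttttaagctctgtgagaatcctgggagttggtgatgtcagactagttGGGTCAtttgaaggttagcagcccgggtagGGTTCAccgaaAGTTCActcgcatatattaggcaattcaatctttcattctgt
DHRS3: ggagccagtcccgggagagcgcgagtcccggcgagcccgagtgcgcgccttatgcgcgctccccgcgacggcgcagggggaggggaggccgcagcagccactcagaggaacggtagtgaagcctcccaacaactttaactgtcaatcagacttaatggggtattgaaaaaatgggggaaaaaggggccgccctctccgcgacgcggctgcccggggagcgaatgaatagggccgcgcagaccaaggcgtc
The RARB window held a direct repeat spaced by 5 bases, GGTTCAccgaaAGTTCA, from 53 to 37 bases before the start, and a further core motif, GGGTCA, upstream of it. Such a repeat stood in 31 of the 35116 RefSeq windows, 0.0883% of them, and in 1 of the 17 windows of the group. Repeats spaced by 1 or 2 bases stood in 0.131% and 0.0399% of all windows and in 0 of the 17. Single core motifs, which overlap the repeats, stood in 8 of the 17 windows and in 38.6% of all windows. They were found at RARA, RARB, RXRA, DHRS3 and CRABP2, and no window of RARG, RXRB or RARRES1 held one. The printed DHRS3 window had no core motif, and each of the other DHRS3 windows had 1. These matches describe letters only, and 300 bases around a start leave out distant elements.

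Levels are given as CPM, counts scaled to library size with TMM factors. Total counts ranged from 28631578 to 30956610 per library, so the floor of 3 counts lay between 0.0969 and 0.105 CPM. The line was checked by markers of cell types. The 4 markers of the basal and mesenchymal type were all above 1 CPM and summed to 3353 to 3614 CPM in control and 3354 to 3567 CPM in khellin libraries. Of them VIM averaged 1969 and 2144 CPM and ITGA6 303 and 307 CPM without passing the edgeR test, while CD44 fell from 591 to 483 CPM and EGFR from 630 to 540.0 CPM. The 7 markers of hormone receptor positive breast cells summed to 186 to 198 CPM in control and 211 to 221 CPM in khellin libraries, most of it ERBB2, which rose from 103 to 118 CPM, and KRT18, at 79.4 and 86.6 CPM. GATA3 stood at 6.03 and 6.52 CPM and EPCAM at 4.52 and 4.08 CPM, whereas ESR1, the estrogen receptor gene, stood at 0.280 and 0.322 CPM and PGR at 0.269 and 0.367 CPM. CDH1, the epithelial cadherin gene, had 0 reads in each control library and 1 or 2 in each khellin library. The table held 2 of 4 blood cell markers, with a summed level of 1.56 to 2.02 CPM in control and 2.28 to 3.22 CPM in khellin libraries, where CD14 rose from 1.73 to 2.57 CPM and PTPRC had 0 to 6 reads. The 2 of 3 fibroblast markers in the table summed to 6.14 to 6.65 CPM in control and 11.4 to 12.6 CPM in khellin libraries, as COL1A1 rose from 6.08 to 11.0 CPM and PDGFRB from 0.371 to 0.944 CPM. The 3 endothelial markers summed to 1.75 to 1.82 CPM in control and 2.28 to 3.02 CPM in khellin libraries, where PECAM1 rose from 1.59 to 2.45 CPM, VWF had 2 to 8 reads and CDH5 had 0 or 1. The part of these shifts in the results below was not tested. Fewer cells of a kind and less RNA per cell cannot be told apart in such bulk samples.

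The 10 genes differed in level by more than 2 orders of magnitude, compared here as CPM per kilobase of merged exon length in GENCODE release 29. In control libraries TGM2 stood highest at 32.1 ± 1.13 CPM per kilobase (SD, n = 3), followed by RXRB at 22.0 ± 1.93, RARG at 12.1 ± 0.331, RARA at 11.1 ± 0.190 and RXRA at 6.90 ± 0.607. PLAAT4 at 2.08 ± 0.121, CRABP2 at 1.21 ± 0.243, DHRS3 at 0.317 ± 0.0190, RARB at 0.215 ± 0.0209 and RARRES1 at 0.0553 ± 0.0320 CPM per kilobase made up the lower range. No neighbours in this order overlapped in their 3 control libraries. The order was the same in khellin libraries, but RARA, at 8.69 to 9.27, and RXRA, at 8.40 to 8.70 CPM per kilobase, overlapped there. Merged exons cover all annotated transcripts, so the level of a gene with many alternative exons is understated.

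Of the 9 genes with enough reads to enter the test, 5 were higher with khellin and 1 was lower by the edgeR test, with an adjusted p under 0.05, beside 19.4% of all 15865 tested genes called, 10.6% higher and 8.82% lower. RARG, RXRA, DHRS3, PLAAT4 and TGM2 were the higher ones, RARA was the lower one, and RARB, RXRB and CRABP2 were not called. The median log2 fold change of the 9 was 0.31, against 0.00 over all tested genes, and nothing is read from these counts, since the same contrast was in view when the genes were chosen. The CPM values of the 2 groups did not overlap for the 6 called genes, as for 38.2% of all tested genes. RARRES1 was left out of the test by the filter on low counts.

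**Figure D1:**
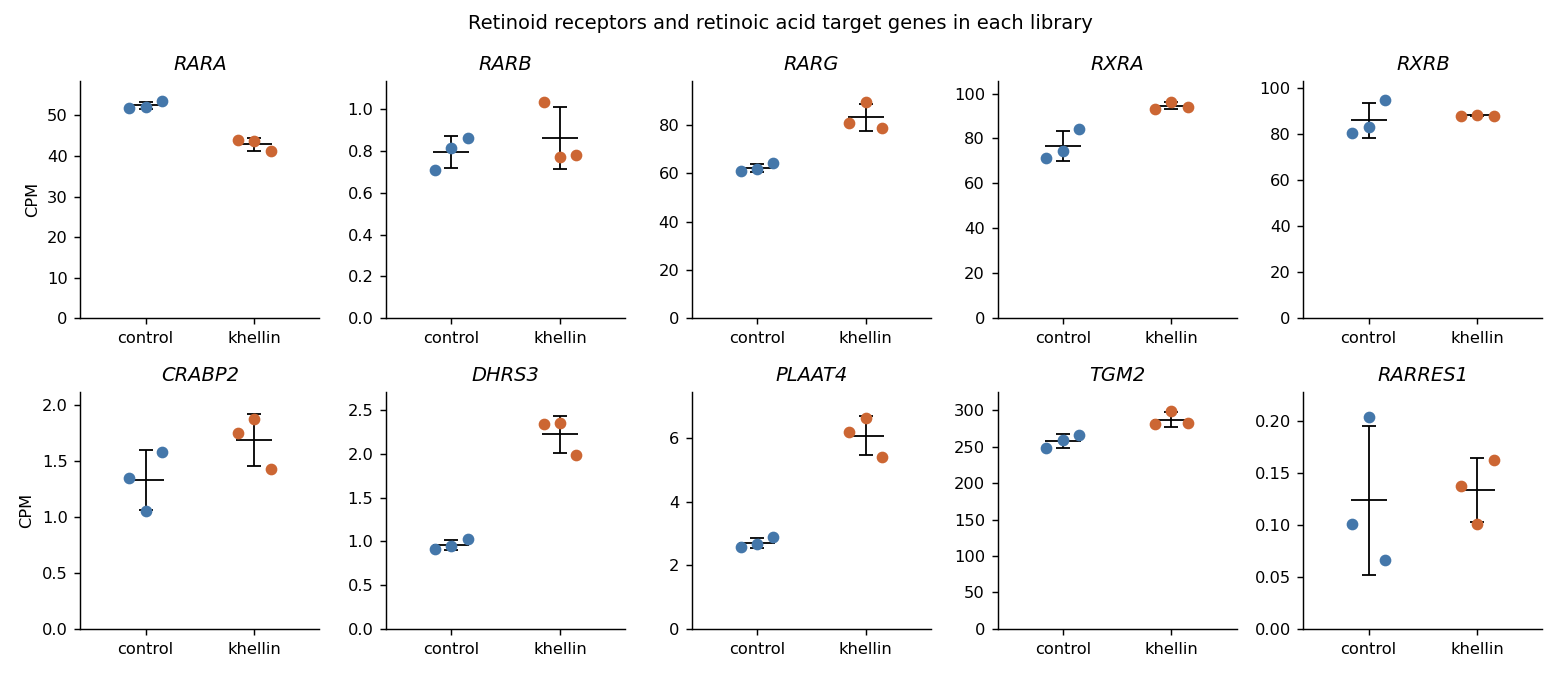
CPM (vertical axes, each from 0) of the 10 genes in each of the 3 control (blue) and 3 khellin (orange) libraries, with bars for the mean and SD. The groups are apart for RARA, RARG, RXRA, DHRS3, PLAAT4 and TGM2 and overlap for RARB, RXRB, CRABP2 and RARRES1.

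The retinoic acid receptor genes went in different directions. RARA (ENSG00000131759, chromosome 17, 40309180 to 40357643, plus strand), which encodes the widely expressed alpha receptor, measured 51.9, 52.0 and 53.5 CPM in control libraries and 43.9, 43.6 and 41.1 CPM in khellin libraries. Every khellin library lay below every control library, and the log2 fold change was -0.29 (SE 0.0546), to 0.817 of the control level. RARG (ENSG00000172819, chromosome 12, 53210567 to 53232980, minus strand), which encodes the gamma receptor, best known from skin, measured 60.9, 61.8 and 64.2 CPM in control and 81.1, 89.6 and 79.0 CPM in khellin libraries. All khellin libraries were above all control libraries, with khellin replicate 2 the highest, and the log2 fold change was 0.42 (SE 0.0592), a fold of 1.34. RARB (ENSG00000077092, chromosome 3, 24687887 to 25597932, plus strand), the gene whose response element is shown above, had only 21, 24 and 26 reads in control and 30, 23 and 24 reads in khellin libraries. Its CPM was 0.794 ± 0.0774 in control and 0.862 ± 0.148 in khellin libraries (SD, n = 3 each), with overlapping groups and a log2 fold change of 0.11 (SE 0.208). Without khellin replicate 1, its highest library, the log2 fold change of RARB was -0.033.

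The summed level of the 3 retinoic acid receptor genes was 23.5 ± 0.536 CPM per kilobase in control and 25.5 ± 1.31 in khellin libraries (SD, n = 3 each), with no overlap between 23.0 to 24.1 and 24.3 to 26.9. Within that sum RARA held 47.6%, 47.2% and 47.0% in the control libraries and 36.5%, 34.3% and 35.7% in the khellin libraries. RARG held 51.5%, 51.8% and 52.0% in control and 62.4%, 64.9% and 63.4% in khellin libraries. The spread within a group was far smaller than the distance between the groups for both genes, while RARB held 0.915 ± 0.0724% and 0.916 ± 0.168%. As shares of 1 sum, these values are not separate from the levels above.

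**Figure D2:**
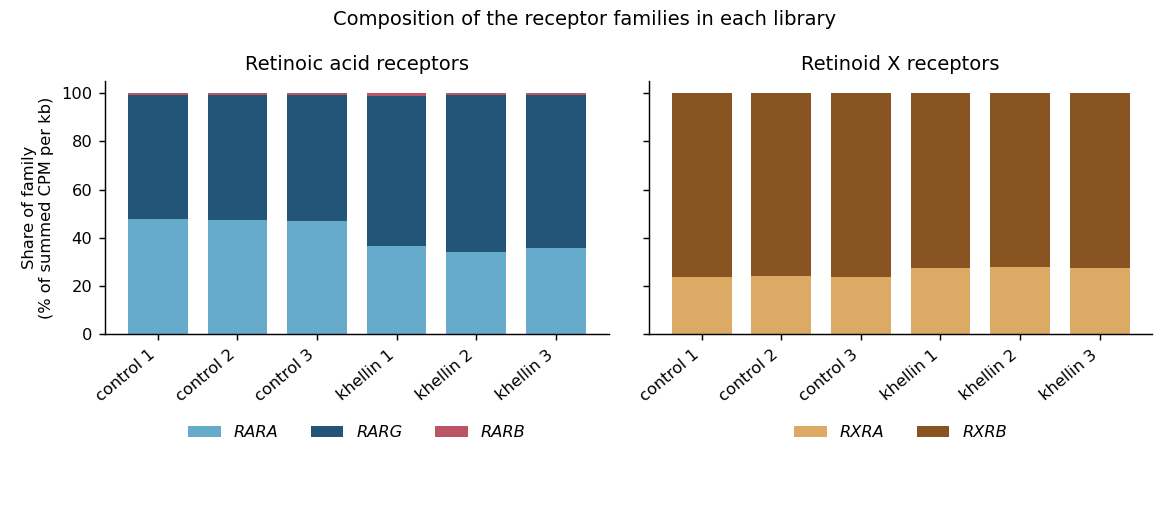
Share of each gene in the summed CPM per kilobase of its receptor family, in percent (vertical axis), for each of the 6 libraries (horizontal axis), with retinoic acid receptors on the left and retinoid X receptors on the right. RARA takes 47.0% to 47.6% in the control bars and 34.3% to 36.5% in the khellin bars, and RXRA 23.9% to 24.0% and 27.3% to 27.8%.

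The retinoid X receptor genes encode the shared partners of the retinoic acid receptors. RXRA (ENSG00000186350, chromosome 9, 134317098 to 134440585, plus strand) measured 71.1, 74.4 and 84.1 CPM in control libraries and 93.1, 96.4 and 94.1 CPM in khellin libraries. Control replicate 3 was the highest control and still below all khellin libraries, and the log2 fold change was 0.31 (SE 0.0642). Without control replicate 2 the value of RXRA was 0.28 (SE 0.0790) and no longer past the threshold. RXRB (ENSG00000204231, chromosome 6, 33193588 to 33200665, minus strand) measured 80.3, 83.3 and 94.6 CPM in control and 87.8, 88.5 and 88.0 CPM in khellin libraries. The khellin values lay inside the control range, and the log2 fold change was 0.034 (SE 0.0634), or -0.015 without control replicate 1. Control replicate 3 was the highest control library for both genes, and as a share of their summed CPM per kilobase RXRA was steadier, at 23.9%, 24.0% and 23.9% in control and 27.3%, 27.8% and 27.5% in khellin libraries. The third receptor gene of the family, RXRG, had 0 to 2 reads per library, under the floor of 3 counts.

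DHRS3 and PLAAT4 showed the largest fold changes of the group. DHRS3 (ENSG00000162496, chromosome 1, 12567910 to 12618210, minus strand) encodes a reductase that turns retinaldehyde back into retinol, and it is known to be induced by retinoic acid. It had 27, 28 and 31 reads in control and 68, 70 and 61 reads in khellin libraries, or 0.962 ± 0.0576 and 2.23 ± 0.210 CPM (SD, n = 3 each). The lowest khellin library was at 1.98 and the highest control library at 1.02 CPM, and the log2 fold change was 1.20 (SE 0.154), a fold of 2.30. PLAAT4 (ENSG00000133321, chromosome 11, 63536808 to 63546462, plus strand), also known as RARRES3, encodes a phospholipase and acyltransferase that was named as a responder to retinoids and is known to respond to interferon as well. It measured 2.57, 2.68 and 2.88 CPM in control and 6.20, 6.62 and 5.40 CPM in khellin libraries, from 76, 79 and 87 and from 180, 197 and 166 reads. All khellin libraries of PLAAT4 were far above the controls, with khellin replicate 3 the lowest of them as for DHRS3, and the log2 fold change was 1.16 (SE 0.114). Both genes exceeded 0.55, the 95th percentile of log2 fold changes over all tested genes.

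**Figure D3:**
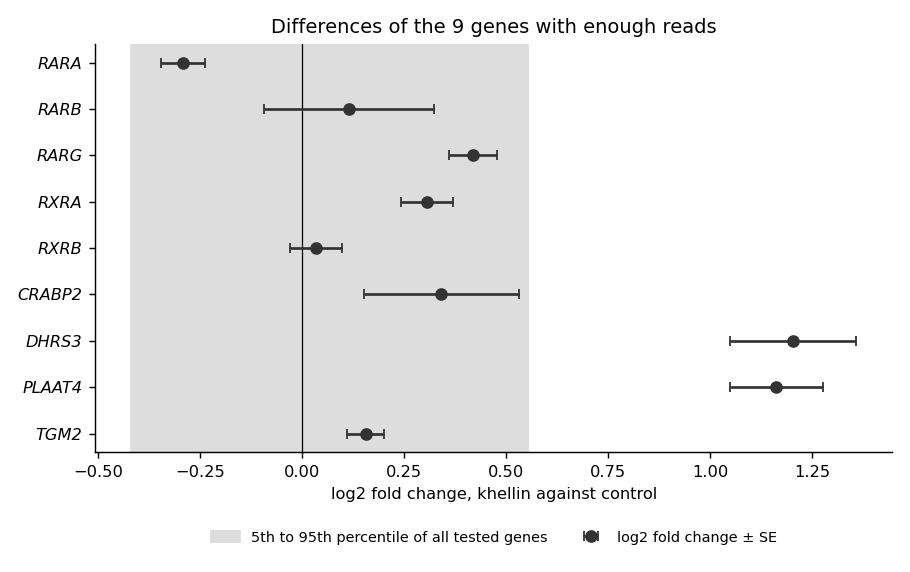
Log2 fold change of khellin against control (horizontal axis) for the 9 tested genes, with bars of 1 SE, beside the range from the 5th to the 95th percentile of all 15865 tested genes in grey. DHRS3 and PLAAT4 lie right of that range at 1.20 and 1.16, and the other 7 genes lie inside it.

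The remaining target and carrier genes differed less. CRABP2 (ENSG00000143320, chromosome 1, 156699606 to 156705816, minus strand), which encodes the protein that carries retinoic acid to the nucleus, had 40, 31 and 48 reads in control and 51, 56 and 44 in khellin libraries. The groups overlapped, at 1.33 ± 0.268 and 1.69 ± 0.232 CPM (SD, n = 3 each), and the log2 fold change of 0.34 had an SE of 0.190. TGM2 (ENSG00000198959, chromosome 20, 38127385 to 38166578, minus strand), which encodes tissue transglutaminase, a protein crosslinking enzyme induced by retinoic acid in many cell types, was the most abundant gene of the group. It measured 248, 259 and 266 CPM in control and 281, 299 and 282 CPM in khellin libraries. The groups were apart but close, and the log2 fold change of TGM2 was 0.16 (SE 0.0458). This call of TGM2 was lost with RLE factors (0.14), upper quartile factors (0.16), DESeq2 (0.14) and a replicate block (0.16), and without control replicate 1 (0.13), control replicate 2 (0.16), khellin replicate 1 (0.17), khellin replicate 2 (0.13) or khellin replicate 3 (0.17). RARRES1 (ENSG00000118849, chromosome 3, 158696892 to 158732489, minus strand), named as a retinoid responder and reported silenced in several cancers, had 3, 6 and 2 reads in control and 4, 3 and 5 in khellin libraries. At 0.124 ± 0.0715 and 0.134 ± 0.0311 CPM it lay close to the floor, and a difference was not detectable at this depth.

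Neighbouring genes may bear on these counts, since the strand setting of the counting is not given in the sources used here. Overlaps were taken over whole gene spans from start to end, not over exons, and their effect on the counts was not tested. Of the 10 genes, 5 overlap another listed gene, in each case on the opposite strand. SLC39A7 (9259 to 11045 reads) overlaps RXRB over 361 bases, RPRD1B (2471 to 2909 reads) overlaps TGM2 over 396 bases, and MFSD1 (2972 to 5361 reads) overlaps RARRES1 over 292 bases. RARA-AS1 lies opposite RARA with 12 to 33 reads per library, against 1264 to 1619 reads for RARA. RARB, RARG, RXRA, DHRS3 and PLAAT4 overlap no gene of the table.

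Genes that make, carry and break down retinoic acid were compared next, in lists of pathway genes that hold none of the 10. Of 16 tested genes of vitamin A uptake, storage and oxidation, 1 fell, none rose and 15 missed the threshold of edgeR's quasi-likelihood test. The list median was 0.05 on the log2 scale, and 6.25% were called, against 19.4% of all tested genes. DESeq2 and limma-voom also called 0 higher and 1 lower, and 3 were higher and 2 lower at an unadjusted edgeR p under 0.05. The one that fell was DHRS4, which encodes another retinal reductase, from 5.60, 5.84 and 5.92 to 4.51, 4.23 and 4.65 CPM. Its log2 fold change was -0.37 (SE 0.0895, adjusted p = 0.0178 by edgeR's quasi-likelihood test), a call lost without control replicate 2 (edgeR adjusted p = 0.0647) and without khellin replicate 1 (0.0638), 2 (0.0707) or 3 (0.0515). RDH14, a retinol dehydrogenase gene, stood at -0.20 (SE 0.0674) and did not pass the test (edgeR adjusted p = 0.0623). Of the retinaldehyde dehydrogenase genes, whose enzymes make retinoic acid, ALDH1A3 was the most counted at 5.35 ± 0.655 and 4.55 ± 0.383 CPM (log2 fold change -0.23, edgeR adjusted p = 0.200), while ALDH1A1 had 0 to 2 reads per library. STRA6, the receptor gene for retinol uptake, had 0 or 1 read. ALDH1A3, ALDH1A1 and STRA6 were chosen after their values were seen.

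Both tested genes of retinoic acid carriage and breakdown passed the test, in opposite directions, beside 19.4% of all tested genes called. FABP5, which encodes a fatty acid carrier that can also bring retinoic acid to another nuclear receptor, fell from 43.5, 43.2 and 46.1 to 32.4, 31.5 and 31.4 CPM, a log2 fold change of -0.48 (SE 0.0571, adjusted p = 5.2e-04 by edgeR's quasi-likelihood test). CYP26B1, which encodes a cytochrome that oxidises retinoic acid for removal, rose from 26.1, 26.6 and 25.0 to 31.5, 32.9 and 30.3 CPM, a log2 fold change of 0.28 (SE 0.0615, edgeR adjusted p = 0.0114). The groups did not overlap for either gene. With khellin replicate 1 left out the CYP26B1 call was lost (edgeR adjusted p = 0.0507), as with khellin replicate 2 left out (0.0509). CYP26A1, a gene of the same enzyme family known for strong induction by retinoic acid, had 3, 1 and 1 reads in control and 0 in each khellin library, at or under the floor of 3 counts.

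Several partners and relatives of the retinoid X receptors were higher with khellin. Among the 15 that could be tested, 5 rose, 1 fell and 9 missed the threshold, with a list median of 0.08. The share called was 40%, against 19.4% of all tested genes, 10.6% higher and 8.82% lower. THRA, the thyroid hormone receptor alpha gene, rose from 25.7, 26.2 and 28.0 to 36.9, 37.1 and 36.4 CPM, a log2 fold change of 0.47 (SE 0.0592, adjusted p = 7.4e-04 by edgeR's quasi-likelihood test). NR2F1, which encodes the orphan receptor COUP-TF1, rose by 0.46 (SE 0.0698), from 17.5 ± 1.13 to 24.0 ± 0.835 CPM (SD, n = 3 each). NR1H3, which encodes the liver X receptor alpha, rose by 0.45 (SE 0.0931, edgeR adjusted p = 0.00954), a call lost without control replicate 2 (0.0509) or khellin replicate 3 (0.0522). VDR and THRB were the other genes that rose, by 0.26 each, and NR2F2, the paralogue of NR2F1, fell by 0.20 (SE 0.0481). These 3 genes, VDR, THRB and NR2F2, were chosen after their values were seen. All 3 calls were lost without control replicate 2 (edgeR adjusted p of 0.135, 0.107 and 0.0512), without khellin replicate 1 (0.145, 0.111 and 0.0643), 2 (0.0878, 0.0569 and 0.0812) or 3 (0.0591, 0.123 and 0.0668), and those of VDR and THRB also with DESeq2 (0.0537 and 0.113). THRB lost its call with no filter on low counts (0.0659) and with a replicate block (0.0619) as well.

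Coregulators of the receptors were mostly higher where they passed the test. Of 20 coregulator genes in the test, 8 rose, 1 fell and 11 missed the threshold, 45% called against 19.4% of all tested genes. The list median was 0.11 and the median absolute log2 fold change 0.14, against 0.15 over all tested genes. TBL1X, a subunit of the corepressor complex, rose from 79.2, 80.5 and 78.8 to 96.8, 97.5 and 92.1 CPM, a log2 fold change of 0.26 (SE 0.0461, adjusted p = 0.00405 by edgeR's quasi-likelihood test). NSD1, a histone methyltransferase gene whose product binds nuclear receptors, rose by 0.26 (SE 0.0497), and EP300, a histone acetyltransferase and coactivator gene, by 0.31 (SE 0.0659). With khellin replicate 2 left out the EP300 call was lost (edgeR adjusted p = 0.0520), as with khellin replicate 3 left out (0.0503). The corepressor gene NCOR1, chosen after its values were seen, rose by 0.28 (SE 0.0614, edgeR adjusted p = 0.0114). Its call did not hold without khellin replicate 1 (0.0511) or khellin replicate 3 (0.0531).

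Among 18 tested genes named elsewhere as retinoic acid targets, 3 rose, 2 fell and 13 missed the threshold, with a list median of 0.11. The share called was 27.8%, against 19.4% of all tested genes. GPRC5A, the gene of an orphan G protein-coupled receptor first found as induced by retinoic acid, rose from 121 ± 2.07 to 192 ± 5.22 CPM (SD, n = 3 each), a log2 fold change of 0.67 (SE 0.0427, adjusted p = 1.6e-05 by edgeR's quasi-likelihood test). ETS1, a transcription factor gene, fell from 414, 386 and 372 to 280, 260 and 276 CPM, a log2 fold change of -0.52 (SE 0.0513). TNFAIP2 rose by 0.18 (SE 0.0461), and ICAM1, the gene of an adhesion molecule, fell by 0.39 (SE 0.0407), both chosen after their values were seen. The TNFAIP2 call was lost with DESeq2 (adjusted p = 0.0540), and in edgeR without control replicate 2 (0.107), khellin replicate 1 (0.0709), khellin replicate 2 (0.0877) or khellin replicate 3 (0.107). Another list held relatives of TGM2 and PLAAT4 and also LXN, which belongs to neither family. Of its 5 tested genes 1 rose, 1 fell and 3, LXN among them, missed the threshold, 40% called against the same 19.4%. F13A1, the gene of the A chain of coagulation factor XIII, rose by 0.69 (SE 0.129), while PLAAT3, a phospholipase gene related to PLAAT4, fell by 0.44 (SE 0.0614). PLAAT3 went from 105 ± 7.70 to 76.9 ± 2.87 CPM and PLAAT1 from 4.67 ± 0.748 to 3.88 ± 0.259 CPM (SD, n = 3 each), the latter not past the test (edgeR adjusted p = 0.187).

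Over these 6 lists 76 genes were tested, of 109 listed and 97 in the table. Of the 76, 18 rose and 7 fell, 32.9% called against 19.4% of all tested genes. Nothing is read from these counts, nor from those of the single lists, since all lists were chosen with earlier results of these data known. For the same reason the adjusted p-values given for genes of these lists are a description. The median log2 fold change of the 76 was 0.08. The counts were 11 higher and 4 lower without control replicate 2, 9 and 4 without khellin replicate 1, 10 and 5 without khellin replicate 2, and 9 and 4 without khellin replicate 3. They were 22 and 7 without control replicate 1 and 18 and 7 without control replicate 3.

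**Figure D4:**
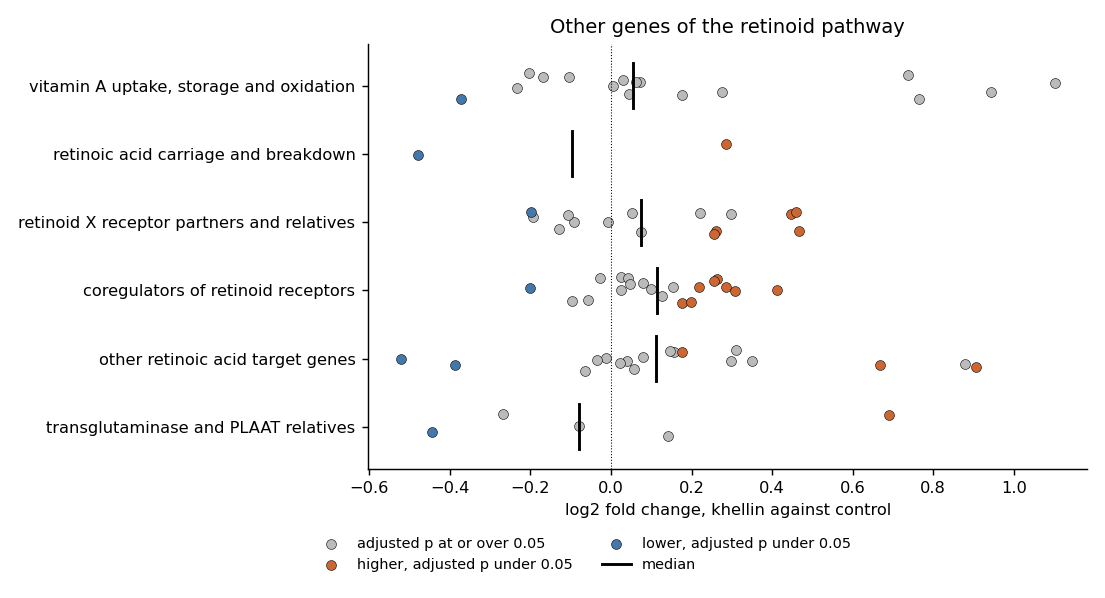
Log2 fold change of khellin against control (horizontal axis) for the 76 tested genes of the 6 pathway lists (rows), with genes past an adjusted p of 0.05 in orange (higher) or blue (lower), others in grey, and a bar at each list's median. The 18 orange points include 8 coregulator genes, and the list medians lie between -0.10 and 0.11.

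RARG had the largest absolute log2 fold change among the genes of the group with a mean of at least 5 CPM, and the genes most like it in pattern were sought over the 6 libraries. The highest Pearson correlations of log2 CPM were those of TMEM94 (r = 0.999), NLRP1 (r = 0.998) and PER1 (r = 0.998), among 10853 genes compared. These values describe 6 points that fall into 2 groups and share their library scaling, and 558 genes had an r over 0.95. PER1, a repressor gene of the circadian clock, went from 26.3, 26.2 and 27.9 to 37.3, 40.6 and 35.8 CPM. Khellin replicate 2 was the highest library for PER1 as for RARG, and also for TMEM94 and NLRP1. That follows from picking these genes by their correlation with RARG over the same libraries. The log2 fold changes were 0.50 for PER1, 0.25 for NLRP1 and 0.21 for TMEM94. Past the threshold with all libraries, NLRP1 was not so without control replicate 2 (edgeR adjusted p = 0.0501), and TMEM94 was not so without control replicate 2 (0.0691) or khellin replicate 1 (0.0644), 2 (0.0646) or 3 (0.0510).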

How the data were processed

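The values deposited by the authors are unnormalized counts of reads for each gene. The submitters' processing notes name the tools fastp, HISAT2 and HTSeq. The genome build, annotation release and strand setting are not given in the sources used here. All 10 genes overlap the gene of the same identifier, chromosome and strand in GENCODE release 29 on GRCh38, from which merged exon lengths were taken. Groups came from the sample titles. CPM used TMM factors. Genes kept by filterByExpr entered the quasi-likelihood test of edgeR (robust, group as the single term), with Benjamini-Hochberg adjustment over 15865 genes and a threshold of 0.05. An SE is the absolute log2 fold change divided by the square root of F. P-values judge the difference between the groups against the spread between libraries within a group, and that spread may be technical. The edgeR step was tested on simulated data. The 10 genes and all lists were chosen with earlier results of these data known. Named genes are the 10, the 3 smallest p-values of each list and the 3 genes most like RARG in pattern, and exceptions are stated. Some of these genes are not reported here. Results were recomputed with DESeq2 and limma-voom, with a replicate block, with 3 other scalings (RLE, upper quartile, library size), unfiltered, with at least 1 CPM in 3 libraries, at a threshold of 0.01 and with each library left out. Versions were Python 3.11.15, DESeq2 1.42.0, edgeR 4.0.16, limma 3.58.1 and R 4.3.3.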

Additional observations from a re-analysis of the deposited data

How the results depend on the processing

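Of 475 recomputed log2 fold changes of 34 named genes, 425 kept their direction and their side of the threshold, 48 in 13 genes kept the direction but lost the call, and 2 changed sign. With single libraries left out, RARB ranged from -0.033 (without khellin replicate 1) to 0.19 and RXRB from -0.015 (without control replicate 1) to 0.11. RARA, RARG, DHRS3 and PLAAT4 kept direction and call under each of 14 alternatives, with ranges of -0.31 to -0.25, 0.36 to 0.46, 1.16 to 1.28 and 1.10 to 1.24. The reruns used the libraries that were in view when these genes were chosen, so they describe dependence on processing only. At an adjusted p under 0.01, 808 genes were higher and 608 lower, and 3 of the 10 genes were higher and 1 lower. Of the other pathway genes, 8 were higher and 4 lower, and a stricter threshold cannot give more calls. With single libraries left out, all genes called ranged from 919 to 1990 higher and from 643 to 1722 lower, the genes of the group from 3 to 5 higher, the lowest without control replicate 2, and the other pathway genes from 9 to 22 higher and from 4 to 7 lower, and the cause was not tested. Calls over all genes were more than with all libraries without control replicate 1 (1990 and 1722) or control replicate 3 (1867 and 1626), the pair of controls furthest apart, with a chi-square of 20.8 per degree of freedom against 1.91 to 8.77 for the other pairs within groups. With the replicate block, 1533 genes were higher and 1282 lower, 4 genes of the group were higher and 1 lower, and 16 pathway genes were higher and 7 lower. Same-numbered control and khellin libraries deviated from their group means with correlations of 0.136, 0.0339 and -0.119, so the numbers were not taken as pairs. Library size alone moved the median log2 fold change of all genes to 0.05. RARRES1 had 2 to 6 reads, RARB 21 to 30, DHRS3 27 to 70 and CRABP2 31 to 56 reads per library, which limits their precision.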
